A study of Rattus norvegicus with 18 samples.

Results

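Gene expression in primary rat hepatocytes exposed to the compound coded DDMB was compared directly with that in hepatocytes exposed to the compound coded CDMB. The 6 arrays were all those labelled DDMB or CDMB, 3 of each, out of 18 in the series. The cells were cryopreserved hepatocytes of male Sprague Dawley rats, which were precultured for 24 h and then held for 24 h with 300 µM of one compound in DMSO. The series as a whole asks how a group of p-dialkoxy chlorobenzenes act on liver cells, and the labels give each compound by its code only. The design text describes 3 independent experiments per condition, and the labels leave unsaid whether each experiment had its own animal. The p-values below therefore cover only the variation among these arrays, part of which may be technical. Cells held with DMSO alone (VC_1, 3 arrays) and with a further test compound at the same dose and time (CDEB, 3 arrays) are given beside the comparison, because they shared the slides with DDMB and CDMB. Each sample was 100 ng of total RNA, labelled with Cy3 and hybridised to 1 one-colour array, and levels are given as the log2 signal relative to the array's 75th percentile, so that 0 is a probe at that percentile and 1 unit is a doubling.

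Hepatocytes carry out most of the body's drug metabolism, make glucose between meals and secrete the bulk of the plasma proteins, including complement. Foreign compounds change these functions through receptors in the cell: CAR and PXR switch on cytochromes P450 such as Cyp2b and Cyp3a, the aryl hydrocarbon receptor (AhR) switches on Cyp1a genes, and PPARalpha switches on peroxisomal and mitochondrial fatty acid oxidation. Hepatocytes in culture also lose part of their specialised expression with time, so the levels of liver-specific genes depend on the state of the culture as well as on the compound.

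DDMB and CDMB were hybridised on different slides. The 3 DDMB arrays shared slide 1 and its scan with the 3 DMSO arrays, and the 3 CDMB arrays shared slide 4 and its scan with the 3 CDEB arrays, so for any gene taken alone the compound and the slide cannot be told apart. Synthetic control RNAs added to the samples differed between the slides. Mid-range controls read 0.30 to 0.57 log2 units higher on the DDMB than on the CDMB arrays, and 0.34 to 0.58 higher on the DMSO than on the CDEB arrays. The mid-range control that differed most stood at 1.78 to 2.02% of the brightest one with DDMB and at 1.23 to 1.32% with CDMB. It stood at 1.98 to 2.04% with DMSO and 1.21 to 1.28% with CDEB. The dimmest controls differed by -0.16 and 0.02 between DDMB and CDMB. The difference between DMSO and CDEB, which crosses the same slides and shares no array with DDMB or CDMB, is therefore given beside the results. A within-slide contrast, the difference of DDMB from DMSO less the difference of CDMB from CDEB, cancels a slide effect that adds equally to both groups of a slide, but it also contains the effect of CDEB. Differences of DDMB from DMSO lie within slide 1. Those of CDMB from DMSO cross the slides, so in them too the compound and the slide cannot be told apart. The DDMB arrays were not alike: array 1 correlated over genes at 0.989 with array 2 and 0.994 with array 3, whereas array 2 correlated at 0.995 with array 3 and also at 0.995 with DMSO array 3. DDMB array 1 correlated at 0.995 to 0.996 with the CDMB arrays, so it was nearer to each of them than to the other DDMB arrays. Between 61.9 and 63.3% of spots were well above background on the 6 arrays, and the 75th percentile lay at a signal of 515 to 620 with DDMB and 482 to 505 with CDMB.

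**Figure D1:**
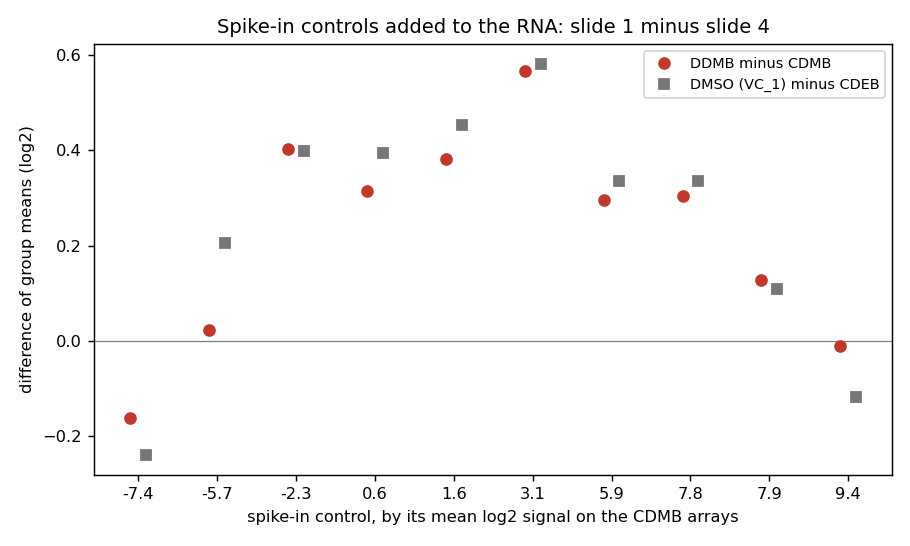
Difference of group means (vertical axis, log2) of 10 spike-in controls, ordered by their mean log2 signal on the CDMB arrays (horizontal axis). Circles are DDMB minus CDMB and squares are DMSO (VC_1) minus CDEB; both sets of points lie between 0.30 and 0.58 for the mid-range controls and at or below 0.21 for the dimmest and the brightest ones.

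Of 21574 genes tested, 146 (0.677%) differed between DDMB and CDMB at an adjusted p below 0.05 (limma over 6 group means of 18 arrays, Benjamini-Hochberg), 60 higher with DDMB (0.278%) and 86 lower (0.399%). Of these, 76 carry a plain gene symbol, 31 higher and 45 lower, and the others are known here by a transcript accession only. The differences were small: their median size was 0.52 log2 units, and 10 of the 146 reached 2-fold. On all 146 the DDMB arrays lay wholly on one side of the CDMB arrays, which held for 26.9% of all genes tested (14.9% with DDMB above, 12% with DDMB below) and for 29.8% between the DMSO and CDEB arrays. DMSO against CDEB gave 24 called genes (0.111%), and the within-slide contrast gave 0 (0%) by limma, with 1170 genes at an unadjusted p under 0.05 and a smallest adjusted p of 0.0714.

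The number of calls rested on the pooled estimate of spread and on single arrays. A limma fit of the 6 arrays alone called 0 genes, with 3954 at an unadjusted p under 0.05, and a fit with the slide as a random block called 0, with 451 at an unadjusted p under 0.05. Without one DDMB array, the count was 527 (array 1 left out), 27 (array 2) or 25 (array 3), and without one CDMB array it was 87, 21 or 23 in the same order. The direction of all 146 differences was kept under each of those fits, but those fits could not have turned it. The 6-array and slide-block fits leave the group means as they were, and for these genes no DDMB array overlapped a CDMB array. All 146 also kept their direction under each other scaling, and 18 stayed called whichever of the 6 arrays was left out. The named ones among these are Castor1, Rragd, Cxcl12, Slc9a9, Mgst3, Tmem63a and Nnat. Of the 146, 118 (80.8%) had the same sign in DMSO minus CDEB, against 69.3% of all genes tested, and 61 of these had an unadjusted p under 0.05 there. Over all genes the DDMB minus CDMB and DMSO minus CDEB differences correlated at a Pearson r of 0.507, a description across genes that are not independent replicates. In the within-slide contrast 141 (96.6%) kept their sign, against 67.4% of all genes tested. That contrast contains the difference by which the genes were called, so a shared sign or a low p there is partly built in. Of the 146, 78 had an unadjusted limma p under 0.05 there together with one not under 0.05 between DMSO and CDEB. The share of all genes that did so was not counted. All calls of single genes below are from the limma fit over 18 arrays, and each can be read against these counts. Counts of called members of a gene list stand beside 0.677% of all genes tested.

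**Figure D2:**
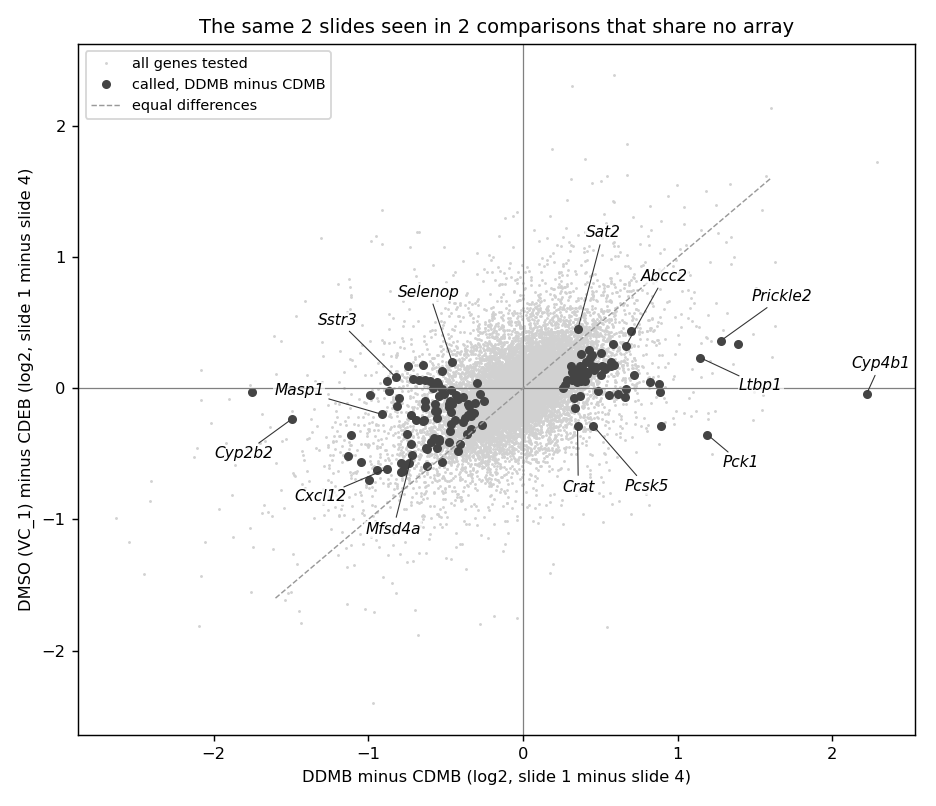
Each point is a gene, with DDMB minus CDMB on the horizontal axis and DMSO (VC_1) minus CDEB on the vertical axis (log2); dark points are the 146 called genes and the dashed line marks equal differences. Cyp4b1, Masp1 and Sstr3 lie near the horizontal line, Pck1, Crat and Pcsk5 lie on opposite sides of 0 in the 2 comparisons, and Sat2, Mfsd4a and Cxcl12 lie nearer the dashed line.

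The largest rise among the called genes with a plain symbol was in Cyp4b1, which encodes a cytochrome P450 that oxidises fatty acids and some foreign compounds. Its log2 signal was -2.79, -1.43 and -1.31 on the DDMB arrays and -4.06, -4.20 and -3.93 on the CDMB arrays. DMSO arrays read -4.50, -3.95 and -3.92 and CDEB arrays -4.03, -4.13 and -4.08. The 3 DDMB arrays thus stood above all 9 others, with array 1 the lowest of them. The difference was 2.22 (SE 0.35), a 4.66-fold higher signal with DDMB (limma, adjusted p = 0.0123). DDMB differed from DMSO by 2.28 and CDMB from DMSO by 0.06, and the within-slide contrast was 2.27 (adjusted p = 0.18). Leaving out a DDMB or CDMB array gave 1.96 to 2.69, with the call lost without DDMB array 2 or 3 or CDMB array 2 or 3 (adjusted p = 0.0731 without DDMB array 2). Background correction by normexp compressed the difference to 1.09.

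Pck1, the enzyme that commits oxaloacetate to glucose synthesis and a target of glucagon signalling, rose as well. It read -2.65, -2.13 and -2.30 with DDMB and -3.75, -3.50 and -3.41 with CDMB. The DMSO arrays read -3.12, -3.87 and -3.57 and the CDEB arrays -3.24, -3.17 and -3.08, so the DDMB arrays were again the highest of the 12. The difference was 1.19 (SE 0.20, adjusted p = 0.0136), or 2.29-fold. DDMB differed from DMSO by 1.16 and CDMB by -0.03; DMSO minus CDEB was -0.35, opposite in sign. The call held without DDMB array 1 and was lost without each of the other 5 arrays in turn (1.08 to 1.34), and normexp gave 0.49 (adjusted p = 0.111). The other 20 measured genes of glucose synthesis were not called, and the list's median difference was -0.10, and -0.14 in DMSO minus CDEB.

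Cyp2b2 had the largest fall among the called genes with a plain symbol. It is a classical target of CAR, the receptor through which phenobarbital acts, and its near-identical neighbour Cyp2b1 may contribute to this probe. Signals were 4.02, 3.25 and 4.15 with DDMB and 5.32, 5.09 and 5.49 with CDMB. DMSO arrays read 5.33, 5.43 and 4.57 and CDEB arrays 5.31, 5.31 and 5.41, so DDMB was below every other array. The difference was -1.49 (SE 0.29, adjusted p = 0.0309), a 2.82-fold lower signal with DDMB. DDMB differed from DMSO by -1.30 and CDMB by 0.19, and the within-slide contrast was -1.26 (adjusted p = 0.591). Without DDMB array 2, the lowest, it was -1.21 (adjusted p = 0.142), and the call held without DDMB array 1 only.

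The stretches of 250 bases before the start sites of these 3 genes are shown because they belong to the called P450 gene that rose most, the called gene of glucose synthesis and the called P450 gene that fell most. They are RefSeq sequences on GRCr8: Cyp4b1 on the minus strand at chr5:134393117-134393366, Pck1 on the plus strand at chr3:182348322-182348571 and Cyp2b2 on the plus strand at chr1:90722031-90722280. Capitals mark matches, on either strand, to TTACGTCA (a cyclic AMP response element), AGGTCA (a nuclear receptor half-site), GCGTG (the core bound by AhR) and CACGTG (an E-box).
Cyp4b1: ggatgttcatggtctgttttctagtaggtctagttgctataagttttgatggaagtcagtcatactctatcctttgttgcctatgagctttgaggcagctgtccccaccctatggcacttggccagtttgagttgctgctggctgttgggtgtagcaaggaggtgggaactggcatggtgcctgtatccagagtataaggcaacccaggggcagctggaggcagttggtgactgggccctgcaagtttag
Pck1: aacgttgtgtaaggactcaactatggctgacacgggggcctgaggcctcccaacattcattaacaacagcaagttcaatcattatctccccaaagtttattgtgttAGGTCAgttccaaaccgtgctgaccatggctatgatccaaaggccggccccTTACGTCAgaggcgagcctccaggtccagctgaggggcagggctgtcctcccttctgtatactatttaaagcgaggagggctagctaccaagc
Cyp2b2: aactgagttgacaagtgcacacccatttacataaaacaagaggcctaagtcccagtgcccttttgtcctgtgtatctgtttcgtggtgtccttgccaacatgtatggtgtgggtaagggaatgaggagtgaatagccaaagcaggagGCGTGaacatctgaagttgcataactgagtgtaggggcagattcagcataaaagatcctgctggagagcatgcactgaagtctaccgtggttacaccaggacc
The Pck1 stretch held AGGTCA 144 bases and TTACGTCA 93 bases before the start, the Cyp2b2 stretch held GCGTG 103 bases before it, and the Cyp4b1 stretch held none of the 4. Of 33469 rat promoters of this length, 0.75% held TTACGTCA, 14.1% AGGTCA, 25.9% GCGTG and 5.59% CACGTG. Of the 62 called genes with a promoter entry, 1, 8, 29 and 4 held them in that order, in any of a gene's entries. The percentages count each promoter entry singly and include genes that were not tested here. The counts and the percentages are therefore unlike, and no enrichment is read from them. A match describes the letters only, and no binding was measured.

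**Figure D3:**
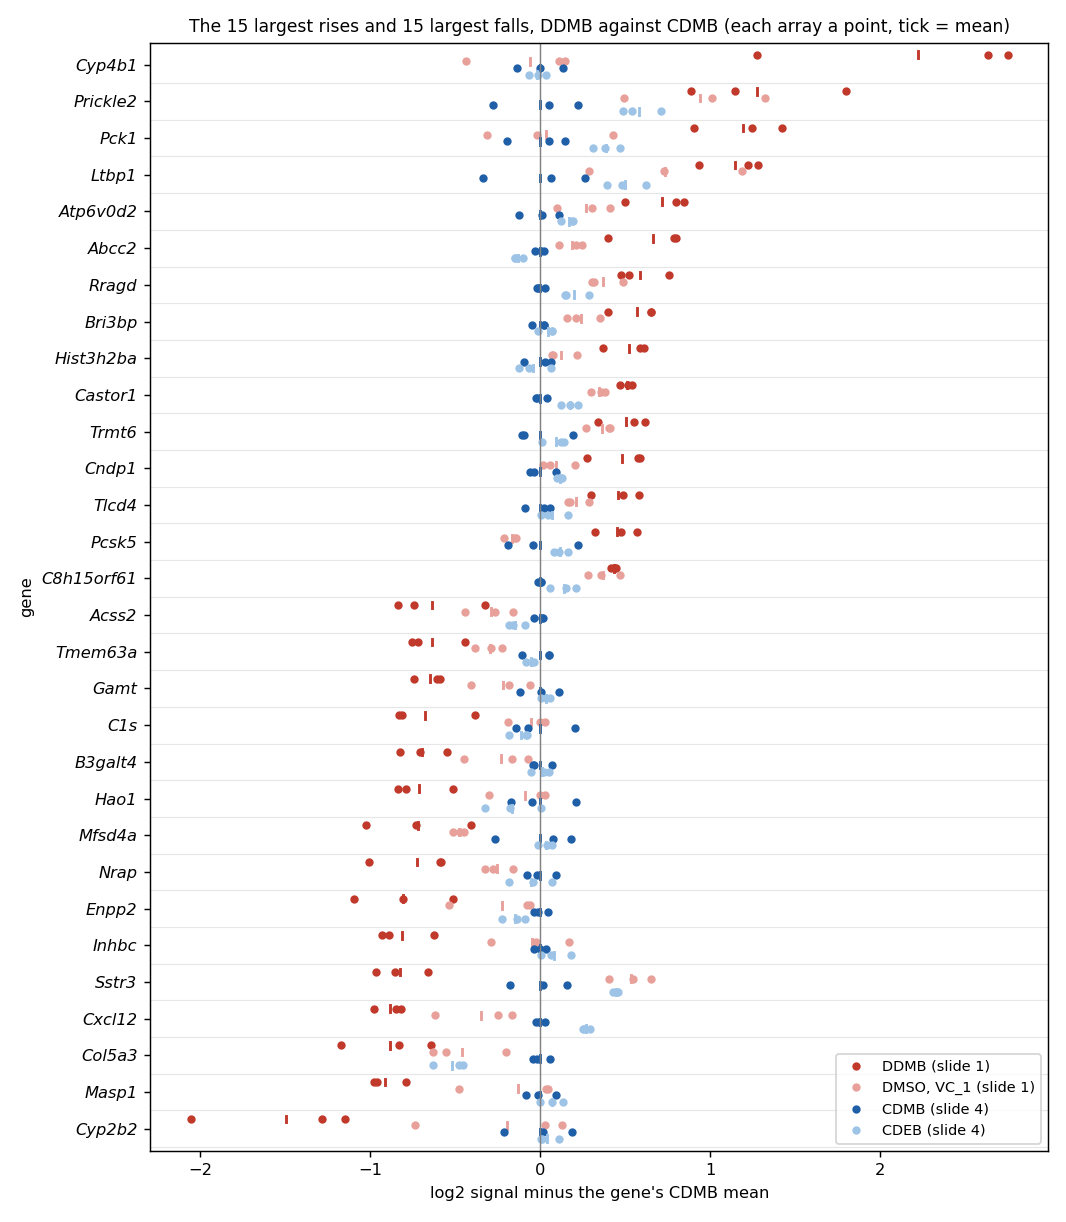
Log2 signal of each array minus the gene's CDMB mean (horizontal axis) for the 15 largest rises and 15 largest falls (rows), with each array a point and each group's mean a tick. DDMB points lie clear of the CDMB points in every row; for Cyp4b1, Pck1, Cyp2b2 and Masp1 they also lie clear of the DMSO and CDEB points, whereas for Castor1 and Rragd the DMSO arrays lie between the DDMB and CDMB arrays or reach into the DDMB range.

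Genes of the lysosome and of amino acid sensing were among the rises. Atp6v0d2, a subunit of the proton pump that acidifies lysosomes, read 1.54, 1.88 and 1.84 with DDMB and 0.92, 1.05 and 1.15 with CDMB, a difference of 0.72 (SE 0.11, adjusted p = 0.0104). Rragd, a GTPase that recruits the growth kinase mTORC1 to lysosomes, read -1.59, -1.83 and -1.87 against -2.32, -2.37 and -2.36, a difference of 0.59 (SE 0.08, adjusted p = 0.00409). Castor1, an arginine sensor that restrains mTORC1, read 1.26, 1.33 and 1.30 against 0.76, 0.83 and 0.77, a difference of 0.51 (SE 0.06, adjusted p = 0.00409). In none of the 3 did the DDMB and CDMB arrays overlap, as held for every called gene and for 26.9% of all genes tested. They sat on both sides of DMSO, however: Rragd differed from DMSO by 0.22 with DDMB and by -0.37 with CDMB, and Castor1 by 0.16 and -0.35. Their values in DMSO minus CDEB were 0.18 and 0.17, and that of Atp6v0d2 was 0.10. Atp6v0d2 lost its call without DDMB array 2 or 3 or CDMB array 2. These 3 genes were grouped after their values were seen, and no list of such genes was tested.

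Abcc2, the pump that exports bilirubin and drug conjugates into bile, read 8.36, 8.77 and 8.75 with DDMB and 7.99, 7.93 and 7.97 with CDMB. The groups did not overlap and the difference was 0.66 (SE 0.10, adjusted p = 0.0104), and DMSO minus CDEB was 0.32. It was the only one of 26 drug and solute transporters measured that was called, and the list's median difference was 0.07, and -0.02 without DDMB array 2. Abcc2 itself was 0.59 without that array (adjusted p = 0.0579).

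Among called genes with a plain symbol, the rises above 1 log2 unit beside Cyp4b1 and Pck1 were Prickle2 and Ltbp1, both at low signal. Prickle2, which takes part in planar cell polarity, was well above background on all DDMB arrays (-5.25, -4.34 and -4.99) and on no CDMB array (-6.41, -6.08 and -5.92). That made it at least 2.35-fold higher with DDMB, where the at-least fold compares the DDMB mean with the lowest signal well above background on the CDMB arrays or the probe's own, whichever was higher (adjusted p = 0.0272). DMSO arrays read -5.64, -5.12 and -4.82, so arrays 2 and 3 of DMSO lay inside the DDMB range and array 1 below it. Ltbp1, which binds latent TGF-beta in the matrix, differed by 1.15 (SE 0.23, adjusted p = 0.0359), and CDMB differed from DMSO by -0.74. In DMSO minus CDEB, Prickle2 differed by 0.36 and Ltbp1 by 0.23. With normexp the differences were 0.09 for Prickle2 and 0.56 for Ltbp1, and both calls were lost.

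The remaining 8 of the 15 largest rises lay between 0.43 and 0.57. They were Bri3bp (0.57), the histone gene Hist3h2ba (0.53), the tRNA methyltransferase subunit Trmt6 (0.51), the carnosine dipeptidase Cndp1 (0.48), Tlcd4 (0.46), the proprotein convertase Pcsk5 (0.46) and C8h15orf61 (0.43), with Castor1 among them as given above. In DMSO minus CDEB, Bri3bp, Hist3h2ba, Trmt6, Tlcd4 and C8h15orf61 differed by 0.20, 0.16, 0.27, 0.14 and 0.23, and Cndp1 by -0.02. C8h15orf61 differed from DMSO by 0.06 with DDMB and by -0.37 with CDMB. For Trmt6 and Pcsk5 a second probe of the same transcript, also above background, gave -0.06 and -0.01, so the probes disagree; for C8h15orf61 the second gave 0.23. Pcsk5 read -1.16, -1.40 and -1.25 with DDMB, above CDMB (-1.50, -1.91 and -1.77) and DMSO (-1.94, -1.86 and -1.87). Its DMSO minus CDEB value was -0.29, and its within-slide contrast was 0.74 (adjusted p = 0.114).

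Smaller calls touched fatty acid oxidation and glutamine use, and were picked out because they belong to gene lists. Crat, which moves acetyl groups onto carnitine in peroxisomes and mitochondria, read 4.80, 5.12 and 5.06 with DDMB and 4.64, 4.60 and 4.69 with CDMB, without overlap, a difference of 0.35 (SE 0.07, adjusted p = 0.0374). Its DMSO minus CDEB value was -0.29, and its within-slide contrast of 0.64 had the smallest adjusted p of that contrast, 0.0714, together with Selenop. Crat lost its call without any 1 of the arrays other than DDMB array 1. Of the 18 measured peroxisomal PPARalpha targets, Crat was the only one called. Acot4 differed by 0.51 (adjusted p = 0.0578) and missed the threshold; the list's median was 0.09, with 13 above 0 and 5 below. Against DMSO the same list had a median of 0.27 with DDMB on the same slide and 0.21 with CDMB across slides. Gls2, the liver glutaminase, read 3.79, 3.91 and 3.91 against 3.58, 3.44 and 3.59, a difference of 0.33 (SE 0.06, adjusted p = 0.0209). It was the only call among 36 genes of amino acid breakdown and the urea cycle, whose median was -0.18 and -0.03 without DDMB array 2. That list's median in DMSO minus CDEB was -0.20.

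Proteases that start the complement cascade were among the falls. C1s and C1r, the proteases of the classical pathway, and Masp1, their counterpart in the lectin pathway, were all lower with DDMB. C1s read 3.18, 2.75 and 2.73 with DDMB and 3.49, 3.77 and 3.42 with CDMB, a difference of -0.67 (SE 0.12, adjusted p = 0.0203), and its second probe gave -0.65. C1r read 3.71, 3.44 and 3.30 against 3.94, 4.25 and 4.00, a difference of -0.58 (SE 0.11, adjusted p = 0.0238). Masp1 read 0.15, -0.02 and -0.04 against 0.92, 0.85 and 1.03, a difference of -0.91 (SE 0.16, adjusted p = 0.0167); its other probes gave -0.72 and -0.42. No DDMB array overlapped a CDMB array for any of the 3, as held for every called gene and for 26.9% of all genes tested. In DMSO minus CDEB, C1s differed by 0.06, C1r by 0.00 and Masp1 by -0.20, and against DMSO the values were -0.62, -0.54 and -0.78 with DDMB and 0.05, 0.04 and 0.13 with CDMB. C1s and C1r lost their calls without DDMB array 2 or 3 or CDMB array 2 or 3 (C1s, adjusted p = 0.104 without DDMB array 2), and Masp1 without any array but DDMB array 1. Cfhr4, a complement factor H related gene outside the list, fell too (-0.31, adjusted p = 0.0313) and was picked out after its value was seen.

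C1s and C1r were the 2 called genes among 35 measured acute phase and complement genes (5.71%, beside 0.677% of all genes tested). Of the 35, 31 differed downwards and 13 had an unadjusted p under 0.05 with DDMB lower, against 0 with DDMB higher; over all genes tested 1716 and 1803 of 21574 did. The list's median difference was -0.34, beside 0.007 over all genes. Its median was -0.20 in DMSO minus CDEB, -0.21 in DDMB minus DMSO and -0.22 in the within-slide contrast. C6, the terminal complement component with the largest value of the list, read 0.98, 0.15 and 0.32 with DDMB and 1.63, 1.79 and 1.49 with CDMB. Its difference of -1.15 missed the threshold (adjusted p = 0.095), as did that of C3 (-0.45, adjusted p = 0.151). The list did not move alike on the 3 DDMB arrays: its median deviation from each gene's mean over 12 arrays was 0.04 on array 1, -0.46 on array 2 and -0.37 on array 3, while the CDMB arrays lay between 0.10 and 0.15. DMSO array 3 lay at -0.30 as well. The median difference was -0.22 without DDMB array 2 and -0.58 without array 1.

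Other secreted or signalling products fell. Cxcl12, the chemokine that guides blood cells and their precursors, read -1.54, -1.70 and -1.57 with DDMB and -0.69, -0.73 and -0.75 with CDMB, a difference of -0.88 (SE 0.10, adjusted p = 0.00228). DMSO minus CDEB was -0.61, so most of that size was also seen between the other groups of the slides, and the within-slide contrast was -0.27. A probe of another Cxcl12 transcript, also above background, differed by -0.19, so its probes disagree. Inhbc, a liver activin subunit, differed by -0.81 (SE 0.13, adjusted p = 0.0136), Enpp2, which makes lysophosphatidic acid, by -0.80 (SE 0.15, adjusted p = 0.0308), and the collagen chain gene Col5a3 by -0.88 (SE 0.14, adjusted p = 0.0136). Their DMSO minus CDEB values were -0.13, -0.08 and 0.06. Sstr3, a somatostatin receptor, read -0.70, -0.51 and -0.81 with DDMB, -0.02, 0.31 and 0.17 with CDMB and 0.56, 0.80 and 0.70 with DMSO. Both compounds thus lay below DMSO, DDMB by -1.36 on the same slide and CDMB by -0.54 across slides. CDMB differed from CDEB, on its own slide, by -0.45. The difference between DDMB and CDMB was -0.82 (SE 0.12, adjusted p = 0.0105).

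Selenop, the selenium carrier that liver secretes into plasma, read 4.49, 4.77 and 4.55 with DDMB and 5.13, 5.06 and 4.99 with CDMB. DMSO arrays read 5.27, 5.28 and 5.24 and CDEB arrays 5.11, 5.06 and 5.03, so the DDMB arrays were the lowest of the 12. The difference was -0.46 (SE 0.07, adjusted p = 0.0123) and DMSO minus CDEB was 0.20, of opposite sign. Its within-slide contrast was -0.66 (adjusted p = 0.0714), and the call was lost without DDMB array 3 or CDMB array 2. Slc9a9, an endosomal sodium and proton exchanger, had similar values: it differed by -0.56 (SE 0.07, adjusted p = 0.00409), with 0.05 in DMSO minus CDEB and a within-slide contrast of -0.61 (adjusted p = 0.0932). Mgst3, a membrane glutathione transferase and peroxidase, read 5.61, 5.51 and 5.57 against 6.03, 5.94 and 6.02, a difference of -0.43 (SE 0.05, adjusted p = 0.00228), and its DMSO minus CDEB value was -0.05. Slc9a9 and Mgst3 kept their calls whichever of the 6 arrays was left out. These 3 genes lie outside the 30 largest differences and were picked out after their values were seen.

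Several enzymes of intermediary metabolism were lower with DDMB. Hao1, the peroxisomal glycolate oxidase, differed by -0.71 (SE 0.15, adjusted p = 0.0385), Gamt, which completes creatine synthesis, by -0.64 (SE 0.10, adjusted p = 0.0114), and Acss2, which activates acetate for lipid synthesis and histone acetylation, by -0.63 (SE 0.12, adjusted p = 0.0328). Their DMSO minus CDEB values were 0.07, -0.25 and -0.14. Acss2 was the only call among 28 genes of fatty acid synthesis. Pklr, the liver pyruvate kinase, and Thrsp, a lipogenic regulator, had larger values that missed the threshold. Pklr read 1.30, -0.52 and -0.24 with DDMB and 2.47, 2.26 and 2.14 with CDMB, a difference of -2.11 (adjusted p = 0.11), and Thrsp differed by -1.27 (adjusted p = 0.108). For both, DDMB array 1 lay nearer the CDMB arrays than DDMB arrays 2 and 3 did. The other large falls were in the galactosyltransferase gene B3galt4 (-0.69), the transporter gene Mfsd4a (-0.72), the muscle-type actin-binding gene Nrap (-0.73) and Tmem63a (-0.64), a stretch-activated channel. Between the other groups of the slides Mfsd4a differed by -0.51, B3galt4 and Tmem63a by -0.24 each and Nrap by -0.20. Nrap shrank to -0.39 with normexp and lost its call.

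Some calls were of like size in the pair of groups that shares no array with DDMB and CDMB. Sat2, related to the polyamine acetyltransferase, differed by 0.36 (adjusted p = 0.00724) and by 0.45 in DMSO minus CDEB. Smad7, an inhibitor of TGF-beta signalling, differed by -0.40 and -0.42, the tyrosine kinase gene Fgr by -0.48 and -0.41, and the lubricin gene Prg4 by -0.62 and -0.46. Their within-slide contrasts lay between -0.15 and 0.02. These 4 genes were chosen after their values were seen to show that pattern.

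Among 45 measured cytochromes P450 of families 1 to 4, Cyp4b1 rose and Cyp2b2 and Cyp4f40 fell (6.67% called, beside 0.677% of all genes tested). Cyp4f40, of the subfamily that oxidises leukotrienes and long fatty acids, read 0.53, 0.51 and 0.57 with DDMB and 1.07, 0.83 and 0.89 with CDMB, a difference of -0.39 (SE 0.08, adjusted p = 0.0412). The list's median was -0.30, with 35 members below 0 and 10 above. Against DMSO it was -0.06 with DDMB on the same slide and 0.19 with CDMB across slides. Its median was -0.22 in DMSO minus CDEB and -0.12 in the within-slide contrast. On the single arrays the list's median deviation was 0.04, -0.40 and -0.13 with DDMB and 0.20, 0.11 and 0.10 with CDMB, and -0.39 on DMSO array 3. Cyp2c11, the male-specific P450, read 2.94, 3.20 and 3.21 with DDMB and 3.89, 3.47 and 3.69 with CDMB. Both compounds lay below DMSO (4.13, 4.15 and 4.47), and the difference of -0.57 between them missed the threshold (adjusted p = 0.0694). Cyp3a23-3a1, the PXR target, differed by 0.34 (95% interval 0.12 to 0.56, adjusted p = 0.139).

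Some receptor target genes were called, beside 0.677% of all genes tested. Of 29 CAR and PXR targets, Abcc2 rose and Cyp2b2 fell (6.9%), and the median was 0.01. Of 10 AhR targets, Aldh3a1, an aldehyde dehydrogenase that AhR induces, was the 1 that fell (10%). It read -4.19, -3.95 and -3.96 with DDMB and -3.66, -3.43 and -3.45 with CDMB, a difference of -0.52 (SE 0.11, adjusted p = 0.0412). DMSO arrays were higher than both (-3.05, -3.04 and -3.20), and the Aldh3a1 call was lost with normexp, with quantile scaling, with the deposited table and without each array but CDMB array 1. Cyp1a1 and Cyp1a2, the best known AhR targets, differed by -0.35 (95% interval -1.73 to 1.02) and -0.46 (-0.95 to 0.04) and were not called. Several other genes that report on liver receptors and stress had narrow intervals around 0. Cyp4a1 and Cyp4a3, the PPARalpha target P450s, differed by 0.02 (-0.29 to 0.33) and 0.00 (-0.22 to 0.22). The lipid desaturase gene Scd differed by -0.04 (-0.19 to 0.10), Hspb1, which encodes a small chaperone, by 0.06 (-0.17 to 0.29), the NRF2 target Nqo1 by -0.07 (-0.38 to 0.23), the stress transcription factor gene Atf3 by -0.02 (-0.19 to 0.14) and the p53 target Mdm2 by 0.10 (-0.05 to 0.24). For Hspb1 both compounds lay above DMSO, by 0.78 with DDMB on the same slide and 0.72 with CDMB across slides. Cyp4a1, Cyp4a3 and Scd differed between the other groups of the slides, by -0.79, -0.62 and -0.56 in DMSO minus CDEB, so their within-slide contrasts were 0.81, 0.62 and 0.51, with adjusted p of 0.299, 0.218 and 0.139. Other genes of this kind lay further from 0 and were not called either (limma). The NRF2 targets Hmox1 and Gclc differed by -0.72 and -0.55 (adjusted p = 0.563 and 0.368). The p53 target Cdkn1a differed by -0.51 (adjusted p = 0.327). Cyp7a1, of bile acid synthesis, differed by -1.76 (adjusted p = 0.308) and the sterol exporter gene Abcg5 by 0.33 (adjusted p = 0.318). Most of the size of Cyp7a1 was also seen in DMSO minus CDEB (-1.55), and its within-slide contrast was -0.21. An absence of a call does not show that the compounds act alike on these genes.

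**Figure D4:**
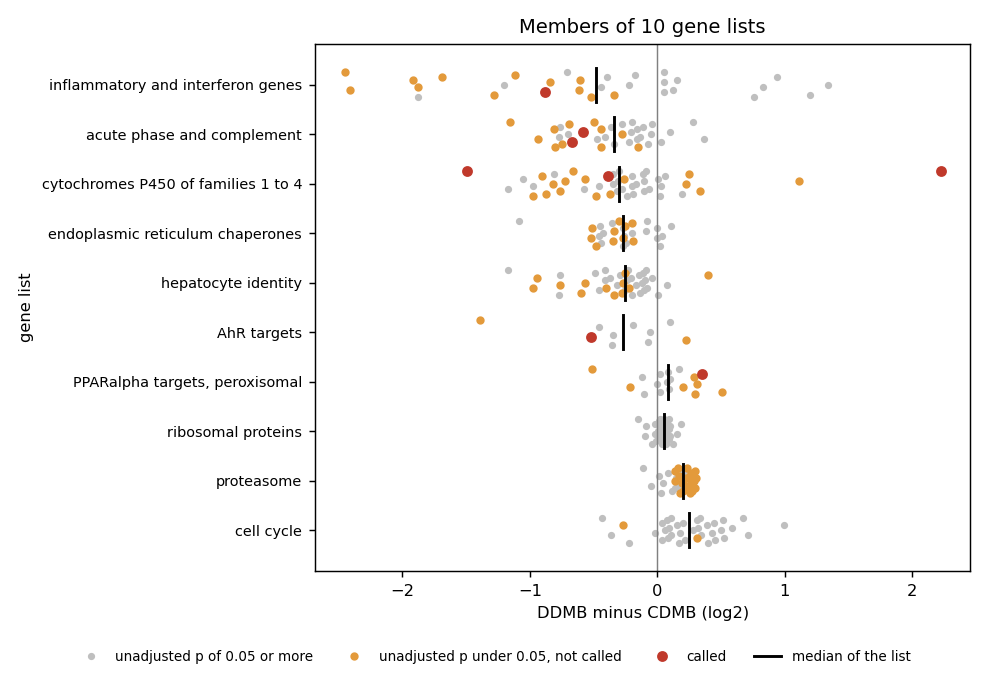
DDMB minus CDMB (horizontal axis, log2) of every measured member of 10 gene lists (rows), with called members in red, members at an unadjusted p under 0.05 in orange and the list's median as a bar. Medians run from -0.48 for the inflammatory and interferon genes to 0.25 for the cell cycle genes, and the proteasome genes lie in a narrow band around 0.20.

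Proteasome genes lay to one side with small values. The proteasome degrades tagged proteins, and 26 of its 33 measured genes had all DDMB arrays above all CDMB arrays, where 14.9% of all genes did. None passed the adjusted threshold in limma, while 21 had an unadjusted p under 0.05 with DDMB higher and 0 with DDMB lower. The median difference was 0.20. The core subunit gene Psmb1 read 5.03, 5.13 and 5.18 with DDMB and 4.86, 4.86 and 4.77 with CDMB, a difference of 0.28 (adjusted p = 0.095), and the regulatory subunit gene Psmd3 differed by 0.30 (adjusted p = 0.134). The list's median deviation was 0.14, 0.13 and 0.25 on the DDMB arrays, 0.02, -0.02 and -0.06 on the CDMB arrays, -0.08, -0.10 and 0.02 on the DMSO arrays and -0.07 to -0.11 on the CDEB arrays. Its median in DMSO minus CDEB was 0.04, and it stayed between 0.15 and 0.22 under the alternatives run, the leave-one-out fits included. Psme1 and Psme2, the interferon-induced activator subunits, differed by -0.11 and -0.05.

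Interferon-induced genes had large values that varied widely among arrays of a group. Of 30 inflammatory and interferon genes, Cxcl12 was the only one called, 20 lay below 0, and the median was -0.48. The antiviral genes Ifit3 and Isg15 had the largest values. Ifit3 read -1.51, -4.36 and -3.57 with DDMB and -1.50, 0.74 and -1.32 with CDMB, a difference of -2.45 (adjusted p = 0.243). Isg15 read 3.72, 0.85 and 1.02 against 2.96, 6.34 and 3.52, so its groups overlapped, a difference of -2.41 (adjusted p = 0.304). CDMB array 2 was the highest of the 12 arrays for both, and the list's median deviation there was 0.70, against -0.12 and -0.00 on the other CDMB arrays. Without CDMB array 2 the list's median difference was -0.29. Between DMSO and CDEB the list's median was -0.06, while Ifit3 differed by -1.42 and Isg15 by -0.86. Both genes were lower on DDMB arrays 2 and 3 than on array 1.

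Liver-specific and proliferation genes separated the arrays within the groups. The median deviation of 39 hepatocyte identity genes was 0.09, -0.41 and -0.17 on the DDMB arrays, 0.18, 0.10 and 0.14 on the CDMB arrays and 0.10, 0.01 and -0.44 on the DMSO arrays. Cell cycle genes ran the other way, at 0.42 on DDMB array 2 and 0.70 on DMSO array 3, with the other DDMB and CDMB arrays between -0.16 and -0.01. None of the 39 hepatocyte identity genes was called by limma, 11 had an unadjusted p under 0.05 with DDMB lower and 1 with DDMB higher, and the median difference was -0.26 (-0.19 without DDMB array 2). A like median, -0.27, was seen in DMSO minus CDEB. The list's median was -0.03 in DDMB minus DMSO on the same slide and -0.01 in the within-slide contrast. Cyp2e1 and the bile acid importer gene Slc10a1 were among the lowest, at -1.17 (adjusted p = 0.481) and -0.94 (adjusted p = 0.27). Their DMSO minus CDEB values were -1.10 and -0.55, and their within-slide contrasts -0.08 and -0.39. None of the 28 endoplasmic reticulum chaperone genes was called either, with 10 at an unadjusted p under 0.05, all lower with DDMB, and a median of -0.27. Against DMSO the chaperone median was -0.003 with DDMB on the same slide and 0.27 with CDMB across slides. It was -0.11 in DMSO minus CDEB and -0.08 in the within-slide contrast. The complement, P450 and chaperone lists were thus low on DDMB array 2 and DMSO array 3, on which the hepatocyte list was low. The lists are not independent, because the P450 and hepatocyte lists share members such as Cyp2e1. On DDMB array 3 the complement list (-0.37) was lower than on DMSO array 3 (-0.30), while the hepatocyte list there was at -0.17. The part of that state of the cells in the differences above was not tested. Without DDMB array 2 and DMSO array 3 together, an alternative chosen after the data were seen, 34 genes were called, 10 higher and 24 lower, 31 of them among the 146.

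**Figure D5:**
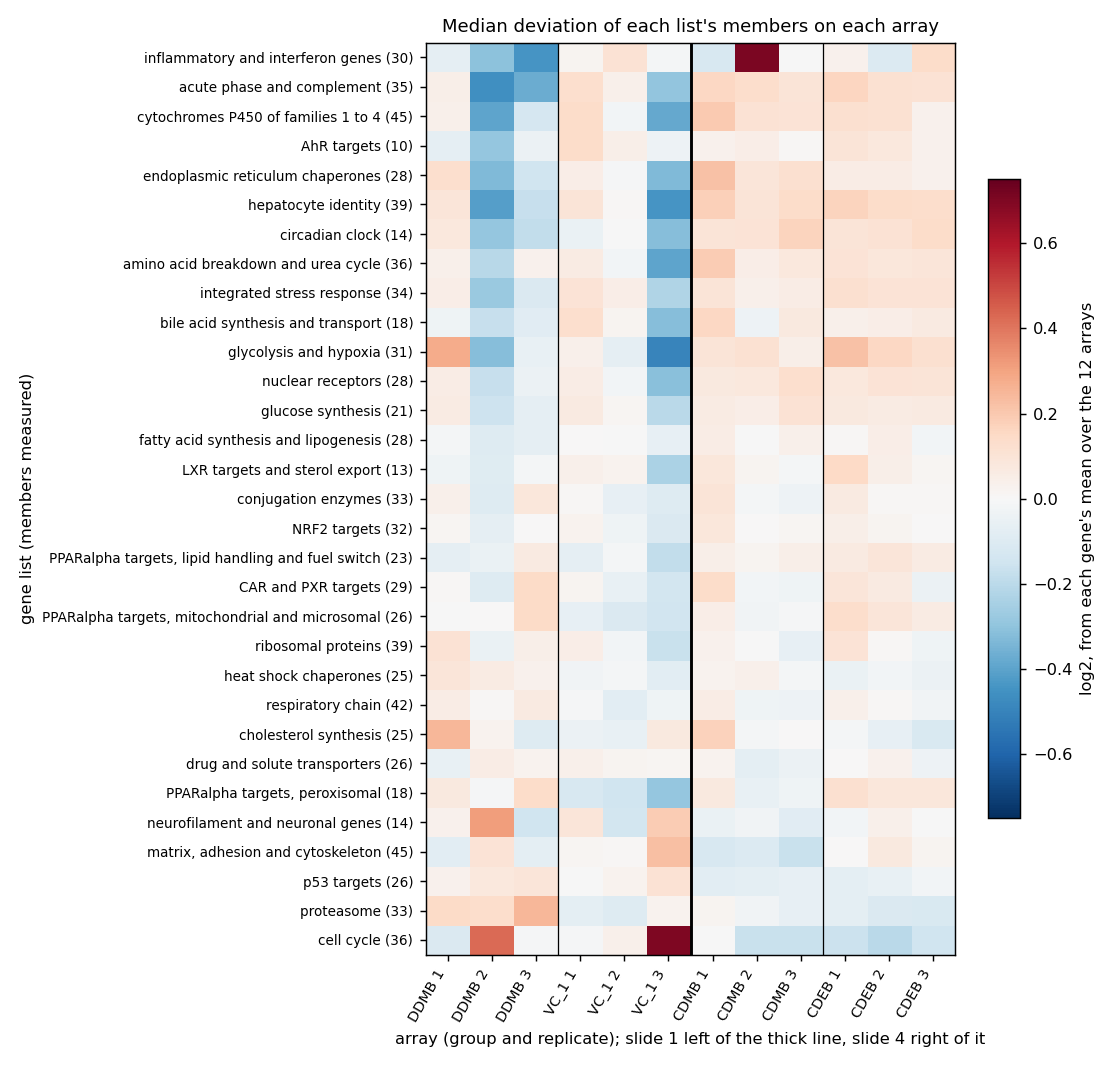
Median deviation of the members of 31 gene lists (rows, with the number measured) from each gene's mean over 12 arrays (colour, log2), for each array (columns), with slide 1 left and slide 4 right of the thick line. DDMB array 2 and DMSO array 3 are low for the liver-specific lists and high for the cell cycle genes, CDMB array 2 is high for the inflammatory and interferon genes, and the proteasome genes are highest on the 3 DDMB arrays.

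The cells matched their label as hepatocytes. All 39 hepatocyte identity genes on the array passed the filter on dim probes, and their summed signal, in multiples of the array's 75th percentile, was 4091 to 5374 with DDMB and 5338 to 5486 with CDMB. Part of the markers of other cell types were also detected. Of 16 macrophage markers on the array, 7 passed the filter, with a summed signal of 16.4 to 19.3 with DDMB and 17.8 to 19.3 with CDMB, and Cd163, Marco, Csf1r, Vsig4, C1qa, C1qc, Mrc1 and Ptprc were above background on none of the 12 arrays. Of 17 markers of stellate cells and fibroblasts, 9 passed, at 1.50 to 2.30 with DDMB and 1.32 to 1.41 with CDMB, and Lrat, Lum, Thy1, Ngfr, Hand2 and Gfap were never above background. Endothelial markers passed in 6 of 14 cases (8.79 to 10.0 and 9.97 to 10.2), lymphocyte markers in 4 of 14 (8.40 to 8.95 and 7.99 to 8.68), and neutrophil markers in 0 of 9. Cholangiocyte markers passed in 6 of 12 cases (5.57 to 5.88 and 5.73 to 6.19) and erythroid markers in 4 of 11 (2.13 to 2.14 and 2.17 to 2.24). The part of these cell types in the differences was not tested. In cultures such as these, fewer cells of a type and less RNA per cell cannot be told apart.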

How the data were processed

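Per the file headers, the software was Agilent Feature Extraction 10.7.1.1. The deposited scanner files give for each spot a processed intensity, already background-subtracted, on a linear scale. The deposited table of normalized signal for VC_1, DDMB, CDMB and CDEB was found to be this intensity divided by a constant per array, within 1%, and served as an alternative. From the intensities, control spots and flagged outliers were left out, spots of a probe averaged, and log2 values taken minus each array's 75th percentile. Of 45598 probes, 21109 were named through RefSeq's gene table (GRCr8, used for names only) and 24489 kept an accession or probe name. A probe was kept where every array of some group flagged it as well above background (25306). The kept probe with the highest mean stood for a gene (21574 genes).

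Models were fitted with limma 3.58.1 (lmFit and eBayes, R 4.3.3) to 6 group means over all 18 arrays, with Benjamini-Hochberg adjustment and a threshold of 0.05. The fit was tested on simulated data. Intervals are 95% and cover the residual spread over arrays; the number of arrays limits precision. Named genes were the 15 largest called rises and falls with a plain symbol, up to 3 members of each list, and a fixed set; further names were chosen after their values were seen. The comparison and its gene lists were chosen with earlier results of these data known. The files hold no mean signal, so the normexp alternative used the median signal. The study's own tests are not given in the sources used here. Alternatives covered background correction, scaling, filter, probe choice, arrays in the fit, spread model, slide and replicate blocks and each array left out.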

Additional observations from a re-analysis of the deposited data

How the results depend on the processing

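DDMB minus CDMB gave 146 called genes, and 91 with normexp background correction, 45 with no filter on dim probes, 0 with only the 6 arrays of DDMB and CDMB, 261 with trended robust spread (52.1% higher with DDMB, against 41.1%), 458 with array weights by group and 0 with the slide as a random block. Quantile scaling (162), the deposited table (181), a filter on both groups (202), the mean of all probes (136) and 12 arrays (148) kept the count within 1.5 times. Leave-one-out counts ran from 21 to 527; leaving out a VC_1 or CDEB array, chosen after the data were seen, gave 92 to 189, and leaving out DDMB array 2 and VC_1 array 3 together gave 34. VC_1 minus CDEB gave 24, and 8 with normexp, 8 with the deposited table, 6 with no filter, 38 with the filter on both groups, 8 with 12 arrays, 275 with array weights, 0 with the slide block, 0 to 39 leaving out an array, and 6 without DDMB array 2 and VC_1 array 3. The within-slide contrast gave 0, and 4 with trended robust spread, 24 with array weights, 6 with the slide block and 0 to 16 leaving out an array. The 6-array fit has fewer arrays and the unfiltered fit more genes, dim ones included. The cause was not tested for these or for the other alternatives.

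Replicate numbers did not visibly pair the DDMB and CDMB arrays. The deviations of same-numbered arrays correlated at 0.08, -0.02 and 0.11, and those of differently numbered ones at -0.17 to 0.11. Other pairs of groups were not compared in this way, so a pairing is not excluded. A replicate block gave 383 called genes for DDMB minus CDMB, 38 for VC_1 minus CDEB and 0 for the within-slide contrast. Over 3204 refits of 169 named or called genes 0 called differences changed sign, and 17 refits of uncalled ones did (Car12, Cyp4a1, Cyp4a3, Atf3, Scd and Nefm). For called genes, leaving out an array could not change the sign, because their DDMB and CDMB arrays did not overlap. Of 703 refits of 37 list medians, 660 stayed within the replicate SD. Dim genes limit the comparison: normexp compressed Cyp4b1, Pck1, Prickle2 and Ltbp1.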
